A study of Mus musculus with 5 samples.

Results

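The regions described here are the binding sites of IRF4 that the authors' chromatin immunoprecipitation and sequencing (ChIP-seq) lists record at 48 h of B cell activation and nowhere else. Of the 1573 peaks in the IRF4 48 h list, 1562 lay on chromosomes 1 to 19 or X. Of these, 878 overlapped no interval of the other 4 deposited lists by even 1 bp and are called the peaks found alone. The remaining 684 placed peaks of the same list, each shared with at least 1 other list, are called the other 48 h peaks. The 5 lists held 5590 intervals in all. Membership was thus chosen by measured values, the presence or absence of a called peak in each library, and whatever follows directly from that choice is given as a description with no test. A list holds only what passed its caller's threshold, so a site missing from the other lists may still have carried tags there, which were not analysed here.

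All 5 groups came from wild-type C57BL/6 mice. The IRF4 48 h group was naive splenic B cells cultured for 48 h with lipopolysaccharide (LPS) at 10 µg/ml, a bacterial cell wall component that activates B cells through Toll-like receptor 4, and precipitated with anti-IRF4 (M-17). The 4 groups behind the other lists were the same culture at 72 h with anti-IRF4, at 48 h and at 72 h with anti-IRF8 (C-19), and germinal centre (GC) B cells sorted on day 13 after immunisation with NP-KLH, also with anti-IRF8. Each group held 1 library, so no difference has a replicate check, and all intervals below are 95% intervals that cover counting error only. The header of the IRF8 72 h list names its tags as a second replicate. The LPS libraries held between 3065426 and 4375858 tags, with 3396941 in the IRF4 48 h library, of which 0.82% fell in peaks. That share was lower in the other LPS libraries, at 0.45% for IRF4 72 h, 0.18% for IRF8 48 h and 0.52% for IRF8 72 h. Their lists were also shorter, with 898, 234 and 1059 intervals in that order against 1573 for IRF4 48 h. The GC list held 1826. Membership was not adjusted for these differences. The GC list, called with another program according to the design text, gives positions without signal or depth.

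IRF4 is a transcription factor of the interferon regulatory factor family that drives activated B cells towards class switching and plasma cell differentiation. It binds DNA weakly by itself and usually sits beside a partner. At the ETS-IRF composite element (EICE) the partner is PU.1 or SPIB, and at AP-1-IRF composite elements it is a dimer of BATF with a JUN protein. The interferon-stimulated response element (ISRE), a tandem of GAAA words, can be bound by IRF proteins alone.

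Windows of the strongest single-copy peaks that carry each of these elements show what lies under the peaks found alone. They were taken from the mm9 assembly (NCBIM37), plus strand, 5′ to 3′, with 50 bases on each side of the peak centre. Capitals mark the 5 elements searched on both strands, and each line begins with the gene whose transcription start is nearest. The first window of each kind has the most tags among peaks with that element in the printed stretch, leaving out windows in untranslated exons, and the second, where shown, is the next in rank. The first 3 windows hold an AP-1-IRF composite, read on either strand as GAAA directly before TGACTCA or TGAGTCA, or TTTC with 4 bases before the same AP-1 site. In the Inpp4b window both arrangements share 1 AP-1 site.
Chst12, AP-1-IRF, adjacent, chr5:140993852-140993952: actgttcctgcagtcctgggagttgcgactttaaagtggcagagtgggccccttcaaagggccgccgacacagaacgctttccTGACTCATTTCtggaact
Hif3a, AP-1-IRF, 4 bases apart, chr7:17652486-17652586: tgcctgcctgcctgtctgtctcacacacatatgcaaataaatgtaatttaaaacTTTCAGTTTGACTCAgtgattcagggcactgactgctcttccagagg
Inpp4b, AP-1-IRF, 4 bases apart, chr8:84094126-84094226: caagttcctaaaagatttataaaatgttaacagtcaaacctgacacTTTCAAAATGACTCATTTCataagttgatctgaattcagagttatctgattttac

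The next 2 windows hold an AP-1 site, TGACTCA or TGAGTCA, without a composite. They are shown because this is the most frequent of the elements under the peaks found alone.
Rere, AP-1 without a composite, chr4:149919154-149919254: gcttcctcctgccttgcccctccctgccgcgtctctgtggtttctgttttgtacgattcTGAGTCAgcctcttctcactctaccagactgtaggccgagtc
4930512M02Rik, AP-1 without a composite, chr11:11466583-11466683: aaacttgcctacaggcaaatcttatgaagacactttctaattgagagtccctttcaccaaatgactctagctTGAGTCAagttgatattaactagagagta

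The EICE was searched as GGAA, any 2 bases and GAAA, and the ISRE as GAAA, any 2 bases and GAAA. The window near Irf4 is the one at the gene of the precipitated factor. The Fut8 window belongs to the strongest single-copy peak found alone and has no site of the 5 kinds.
1700106N22Rik, EICE, chr17:85495877-85495977: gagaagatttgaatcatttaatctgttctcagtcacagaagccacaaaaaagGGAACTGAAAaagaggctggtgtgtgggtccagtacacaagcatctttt
Hdgfrp3, EICE, chr7:89066611-89066711: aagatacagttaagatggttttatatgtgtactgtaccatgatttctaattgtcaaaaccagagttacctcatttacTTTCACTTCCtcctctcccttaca
Irf4, ISRE, chr13:30824692-30824792: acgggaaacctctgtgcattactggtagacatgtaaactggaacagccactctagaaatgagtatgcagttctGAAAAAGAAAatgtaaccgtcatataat
Gm410, ISRE, chr3:57500247-57500347: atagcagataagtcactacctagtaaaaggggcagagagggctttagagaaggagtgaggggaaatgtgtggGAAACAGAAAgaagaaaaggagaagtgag
Fut8, none of the 5, chr12:78297784-78297884: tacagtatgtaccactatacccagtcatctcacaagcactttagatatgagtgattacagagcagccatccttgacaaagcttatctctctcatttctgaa

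The peaks found alone were much poorer in EICE than the other 48 h peaks, and richer in AP-1 sites than that pooled group. The AP-1 difference was small against the class shared with IRF4 72 h and no IRF8 list (30.9% of 272, 25.4 to 36.7). An AP-1 site, which JUN, FOS and BATF family dimers bind, lay within 100 bp of the centre of 289 of 878 peaks found alone (32.9%, exact Clopper-Pearson interval 29.8 to 36.1) and of 160 of 684 other 48 h peaks (23.4%, 20.3 to 26.7). In flank windows of the same 201 bases, placed 2000 bp to either side of the peaks found alone, the share was 4.05%. The EICE lay under 66 peaks found alone (7.52%, 5.86 to 9.47) and under 163 other 48 h peaks (23.8%, 20.7 to 27.2), with 2.40% in the flanks. For both elements the intervals of the 2 groups did not overlap, and no test was run between them. The peaks found alone thus held AP-1 sites 8.13 times as often as their flanks, and EICE 3.14 times as often. The same ratios were 5.70 and 10.2 for the other 48 h peaks with their own flanks.

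Composite AP-1-IRF elements were about as frequent in both groups. Either arrangement was present in 51 peaks found alone (5.81%, 4.36 to 7.57) and in 36 other 48 h peaks (5.26%, 3.71 to 7.21). Only 2 of the 1754 flank windows of the peaks found alone held one. Every composite is also counted as an AP-1 site. The adjacent arrangement was under 4.44% of the peaks found alone (3.18 to 6.02) and 2.63% of the others (1.57 to 4.13). The arrangement with 4 bases between was under 1.59% of the peaks found alone (0.874 to 2.66) and 2.78% of the others (1.68 to 4.30). Both pairs of intervals overlapped.

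The spacing of GAAA words around the AP-1 sites was also counted. The 325 AP-1 sites under the peaks found alone have 650 sides, each read towards the site. GAAA ended directly at the site on 40 of these sides (6.15%) and never at more than 9 of them at any other distance up to 12 bases. In the other orientation, TTTC lay 4 bases away at 14 sides and 6 bases away at 19, against 7 or fewer at every other distance. The spacing of 6 bases was not among the composites searched. Under the other 48 h peaks, with 368 sides, the same 3 counts were 23 (6.25%), 20 (5.44%) and 10 (2.72%). The arrangement at 4 bases was thus less frequent per side in the peaks found alone (2.15%), and the adjacent one was nearly equal.

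The ISRE differed little between the groups or from the flanks. It was found under 41 peaks found alone (4.67%, 3.37 to 6.28) and 30 other 48 h peaks (4.39%, 2.98 to 6.20), against 3.59% in the flanks (2.77 to 4.57). An octamer, ATGCAAAT, the site of OCT1 and OCT2, was under 5.35% of the peaks found alone (3.96 to 7.06) and 3.07% of the others (1.91 to 4.66), with 1.14% in the flanks. The ETS word AGGAAGT, which can overlap an EICE, was present in 13.3% of the peaks found alone and 16.8% of the others. For the RUNX word TGTGGTT the shares were 9.68% alone and 11.7% in the others, and for NF-kappaB sites 3.64% alone and 5.12% in the others. The E-box CAGGTG, a site of E2A proteins, was under 15.6% of the peaks found alone and 17.4% of the others, close to the 14.0% of the flanks. The GC-box GGGGCGG was rare, at 2.51% alone and 2.78% in the others. For each of these words the intervals of the 2 groups overlapped.

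**Figure D1:**
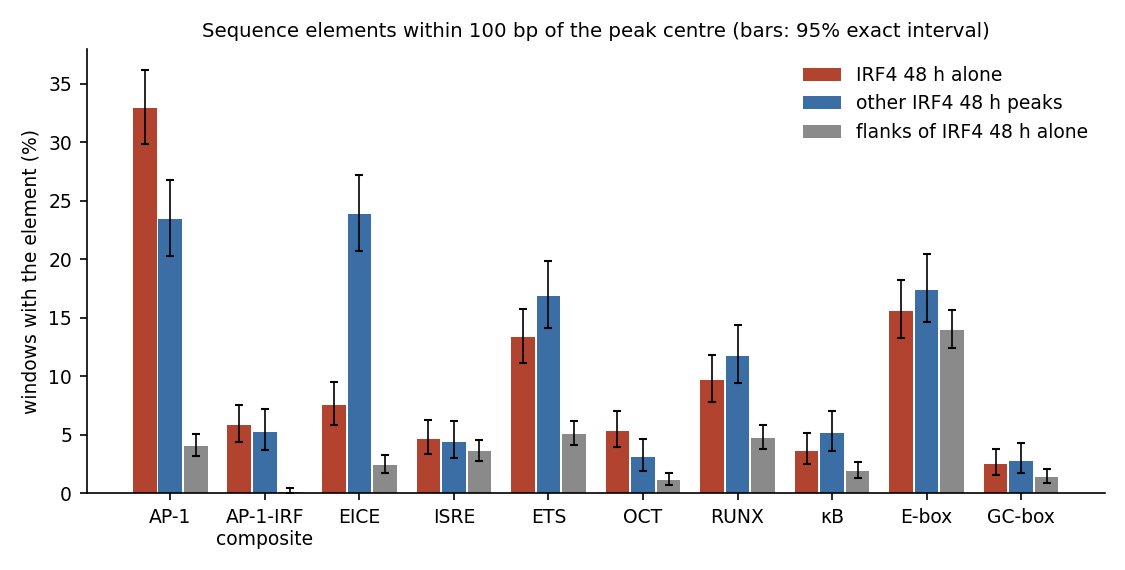
Share of 201-base windows (percent) with each sequence element in the 878 peaks found alone, the 684 other 48 h peaks and the 1754 flank windows of the peaks found alone. Error bars are exact 95% intervals. The AP-1 bar is highest for the peaks found alone (32.9%) and the EICE bar is highest for the other 48 h peaks (23.8%).

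Most peaks found alone carried a single kind of element or none of them. AP-1 without EICE or ISRE accounted for 267 (30.4%), EICE without the others for 50 (5.69%) and ISRE without the others for 26 (2.96%). Only 12 held both AP-1 and EICE. None of the 3 elements was found in 509 peaks found alone (58.0%, 54.6 to 61.3) and in 353 other 48 h peaks (51.6%, 47.8 to 55.4). No match says only that these letters are not in the window. More than 1 AP-1 site lay under 33 peaks found alone (3.76%) and 16 of the others (2.34%).

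AP-1 sites were concentrated at the centres of the peaks found alone, whereas their EICE sites were spread more widely. Over the whole peak, the median distance of an AP-1 site from the centre was 36 bp in the peaks found alone and 42 bp in the others. Of 416 such sites in the peaks found alone, 249 lay within 50 bp (59.9%). For the EICE the median distance was 56 bp in the peaks found alone, with 48.0% of 102 sites within 50 bp, and 30.5 bp in the others, with 59.0% of 212 sites. ISRE sites had median distances of 129 bp in the peaks found alone and 131 bp in the others. Within 50 bp lay 25% of 96 sites in the peaks found alone and 20.5% of 78 in the others. ISRE sites were thus not gathered at the centre in either group.

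**Figure D2:**
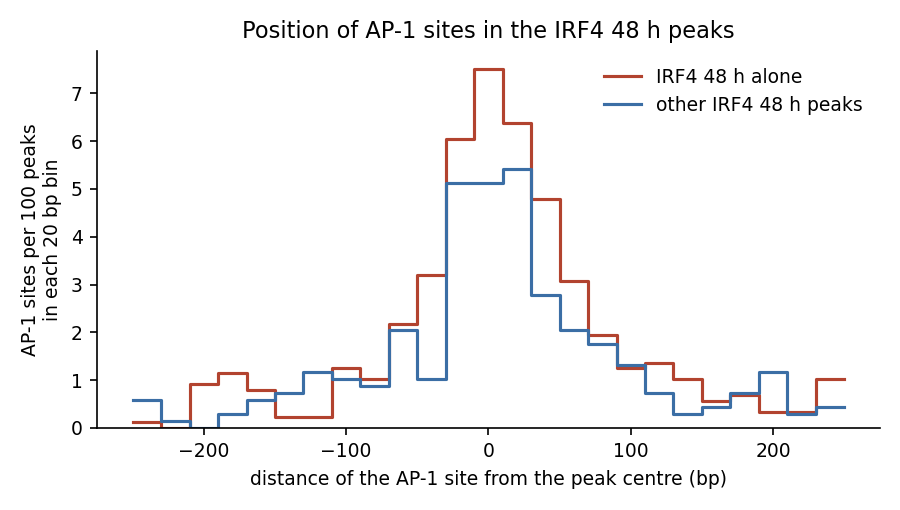
AP-1 sites per 100 peaks in bins of 20 bp, by distance from the peak centre (bp), for the peaks found alone and the other 48 h peaks. Both lines are highest within 50 bp of the centre, and the line of the peaks found alone is the higher of the pair there.

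The element content was read against tag count, because tag count differed between the groups. In the lowest range, 23.6 to 29.4 normalised tags, AP-1 sites lay under 28.3% of 290 peaks found alone (23.2 to 33.8) and 16.4% of 104 others (9.82 to 24.9). In the highest range, 53 tags or more, the shares were 42.4% of 99 peaks found alone (32.6 to 52.8) and 28.4% of 250 others (22.9 to 34.4). In the 2 ranges between, the peaks found alone also had the higher AP-1 share, 34.0% against 19.6% and 33.1% against 24.5%. The EICE share of the peaks found alone stayed between 6.21% and 9.09% in the 4 ranges, while that of the others stayed between 20.4% and 28.8%. EICE intervals were separate in the 3 lower ranges and overlapped in the highest, at 4.24 to 16.6 for the peaks found alone and 15.6 to 25.9 for the others. AP-1 intervals were separate in the second range and overlapped in the other 3.

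**Figure D3:**
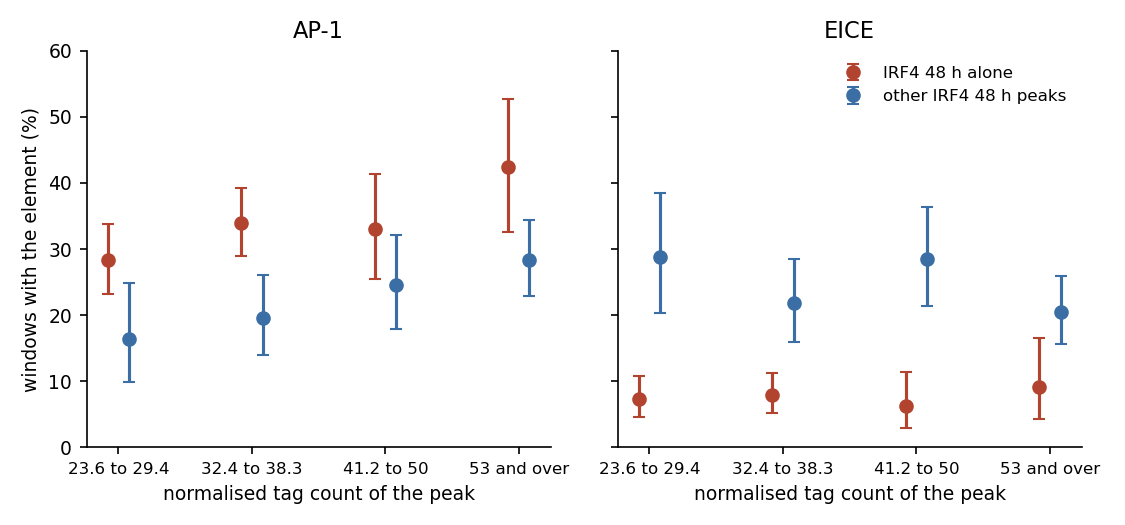
Share of windows (percent) with an AP-1 site (left panel) and an EICE (right panel) in 4 ranges of normalised tag count, for the peaks found alone and the other 48 h peaks. Points are shares and bars exact 95% intervals. In each range the peaks found alone lie above the others for AP-1 and below them for the EICE.

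The other 48 h peaks were also split by the lists they share. The EICE share was 7.52% in the peaks found alone, 22.4% in the 272 peaks shared with IRF4 72 h and no IRF8 list, 17.5% in the 154 shared with an IRF8 list and not IRF4 72 h, and 29.1% in the 258 shared with both. For AP-1 sites the shares in that order were 32.9%, 30.9%, 22.7% and 15.9%. The AP-1 share of the peaks found alone lay inside the interval of the class shared with IRF4 72 h and no IRF8 list (25.4 to 36.7), and their EICE share was below all 3 classes.

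By tag count the peaks found alone were mostly weak. Normalised tag counts, which the authors put on a scale of 10000000 tags a library, had a median of 32.4 in the peaks found alone (quartiles 29.4 and 41.2) and 44.2 in the other 48 h peaks (35.3 and 58.9). In tags as sequenced, the median peak found alone rested on 11 tags and the median other peak on 15. The caller's threshold for this list was 10 tags. Its score, the number of tags it used, had a median of 12 in the peaks found alone and 16 in the others. Many peaks found alone were thus close to the calling threshold. These values bear on the choice of members, since a weak site is more easily missed in another library, and are given without a test. Of the 394 peaks with 23.6 to 29.4 normalised tags, 73.6% were found alone. That share was 65.8% at 32.4 to 38.3, 49.0% at 41.2 to 50 and 28.4% at 53 or more. The 20 highest peaks of the list included 1 found alone, the 100 highest 14, and the 500 highest 172. Fold over the surrounding 10000 bp, a value of the authors' caller, had a median of 12.3 in the peaks found alone and 14.1 in the others. The focus ratio, which tells how well tags are arranged about the centre, had medians of 0.824 in the peaks found alone and 0.833 in the others. AP-1 sites went with slightly higher tag counts in both groups. The medians were 35.3 with and 32.4 without a site in the peaks found alone, and 47.1 and 41.2 in the others. In the peaks found alone these medians stand for 12 and 11 sequenced tags. For AP-1-IRF composites the medians were 32.4 with and 35.3 without in the peaks found alone, and 51.5 and 44.2 in the others.

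**Figure D4:**
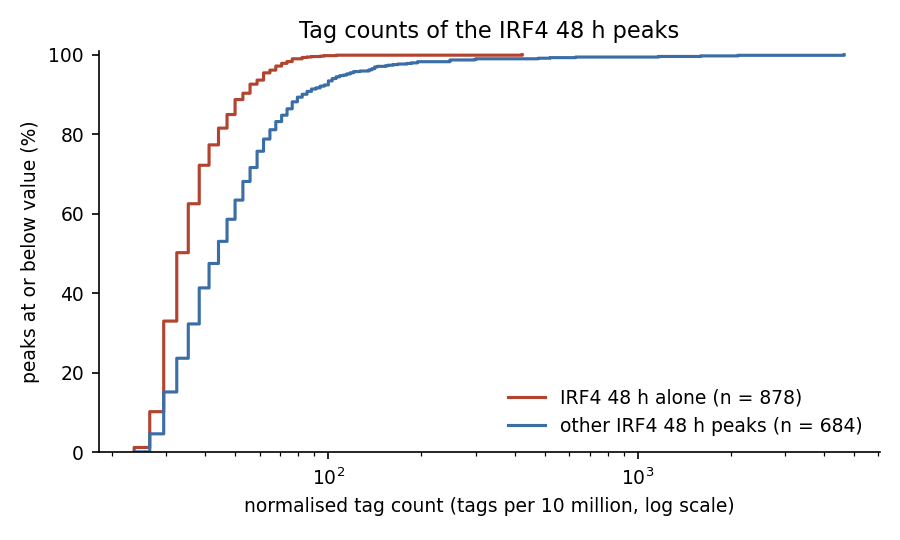
Cumulative share (percent) of peaks at or below each normalised tag count (tags per 10000000, log axis) for the 878 peaks found alone and the 684 other 48 h peaks. The line of the peaks found alone lies to the left, with a median of 32.4 against 44.2.

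The median peak of the IRF4 72 h list had 29.2 normalised tags, which 788 peaks found alone (89.7%) and 652 other 48 h peaks (95.3%) exceeded. At least 2 times that median was reached by 65 of the peaks found alone. Both values are scaled in the same way but come from different libraries, so they give no measure of change. Most peaks found alone were far from any interval of the other lists, at a median gap of 82.3 kb (quartiles 22.2 and 269.1). Only 28 lay within 1000 bp of one, and 20 of these 28 were that close to a GC interval. Just inside the rule was the peak near Gadd45g, a stress-induced gene, with 53 tags, 31 bp from a GC interval. The peaks near Ankrd44 and Ceacam16 followed, with 29.4 and 32.4 tags at 44 and 70 bp from GC intervals. Just outside was the peak near Cdk6, a cell cycle kinase, with 35.3 tags, which overlapped an IRF4 72 h peak by 18 bp. The next were the peaks near Gpr65 and Foxb1, with 26.5 and 35.3 tags and overlaps of 81 and 85 bp.

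Location in the genome hardly separated the groups. Introns held 426 peaks found alone (48.5%, 45.2 to 51.9) and 44.6% of the other 48 h peaks (40.8 to 48.4). Intergenic sequence held 356 peaks found alone (40.5%, 37.3 to 43.9) and 44.2% of the others (40.4 to 48.0). Promoter peaks, with the centre within 1000 bp of a transcription start of a protein-coding gene, made up 83 of the peaks found alone (9.45%, 7.60 to 11.6) and 8.77% of the others (6.76 to 11.1). Exons outside promoters held 13 of the peaks found alone (1.48%) and 2.49% of the others. The median distance to the nearest start was 15.9 kb for the peaks found alone and 16.5 kb for the others, and 22.1% of the peaks found alone and 20.3% of the others were over 50 kb from any. AP-1 sites were under 33.7% of the promoter peaks found alone, 34.5% of the intronic and 30.9% of the intergenic ones, so their frequency varied little with location. Among autosomes, the share of the list's peaks that were found alone was between 42.6% on chromosome 16 (30.7 to 55.2) and 68.6% on chromosome 12 (56.4 to 79.2). Chromosome X held 8 peaks found alone and 5 others.

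Repeated sequence accounted for few peaks found alone. Windows whose 24-base words had a median of more than 1 copy in the genome were under 25 of them (2.85%, 1.85 to 4.18) and under 45 of the others (6.58%, 4.84 to 8.70). The highest peak found alone, at chr9:3001889-3002389 near the predicted gene Gm10722 with 423.9 tags, was of this kind, with a median of 49 copies. The highest single-copy peak found alone had 97.1 tags, against 247.3 for the other 48 h peaks.

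The 12 single-copy peaks found alone with the most tags had 76.5 to 97.1 normalised tags, on 26 to 33 sequenced tags each. The first lay 42.2 kb upstream of Fut8, which encodes the core fucosyltransferase of N-glycans, with 97.1 tags (exact Poisson interval 66.9 to 136.4). It was followed by a peak 326.2 kb from the nearest start, that of the carbonic anhydrase-related gene Car8, with 94.2 tags (64.4 to 133.0). A peak inside Rere, a nuclear receptor co-regulator gene, had 88.3 tags (59.6 to 126.1) and an AP-1 site. A peak 21.6 kb upstream of Cyp11a1, the first enzyme of steroid synthesis, had 85.4 (57.2 to 122.6). The peak 6.57 kb upstream of the nearest start of Rasal1, a Ras GTPase-activating protein, had 82.4 tags (54.8 to 119.1) and an adjacent composite. The peaks with nearest starts at Qser1 and, 61.2 kb away, 4930512M02Rik had the same count, the second with an AP-1 site. The remaining 5, at 76.5 tags each (50 to 112.1), had as nearest starts those of AI848100, Rd3, Ksr1, Tg and Mrpl39, the last 88.7 kb away. There was 1 further single-copy peak found alone at 76.5 tags, with an AP-1 site, which the order by chromosome left outside the 12. Ksr1 is a scaffold of the kinases below Ras. All 12 intervals overlapped, so these peaks have no order beyond counting error. Of the 12, 4 held an AP-1 site and none an EICE or ISRE, while 5 held none of the 12 words searched.

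Ranking by element gave other peaks. Adjacent composites were led by Rasal1, then an intronic peak 5.67 kb upstream of the nearest start of Chst12, a chondroitin sulphotransferase gene, with 70.7 tags. Hif3a, a hypoxia-inducible factor subunit gene, had the strongest composite with 4 bases between, 4.76 kb upstream with 64.8 tags, and an octamer in the same window. An EICE lay under peaks with 67.7 tags in an exon of 1700106N22Rik and 6.17 kb upstream of A930002I21Rik, and under one with 61.8 tags in an intron of Hdgfrp3. The ISRE ranking began with an intron of Inpp4b, a phosphoinositide phosphatase gene, 144.9 kb from the nearest start, at 55.9 tags. The next was a peak 16.4 kb upstream of Irf4 itself, at 53 tags (31.4 to 83.8). NF-kappaB sites ranked highest under 2 peaks of 55.9 tags, one 27.4 kb from the start of Arhgef37 and one in an intron of Gm14005, with the nearest protein-coding start 223.3 kb away. An octamer and an AP-1 site lay under a peak in Ptprj, the receptor tyrosine phosphatase CD148, with 70.7 tags. An octamer and an EICE lay in an intron of the B lineage factor gene Ebf1, with 55.9 tags and 143.4 kb from the nearest start.

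Next, each peak was given to the coding gene whose transcription start lay closest, up to 50 kb away. The peaks found alone reached 629 of 22208 genes in this way, a background of 2.83%, and the other 48 h peaks 506 genes, 2.28%. The overlap was 66 genes, which is 10.5% of the genes of the peaks found alone and 13.0% of those of the others. Most genes had 1 peak found alone, 44 had 2 and 4 had more. Tg, the thyroglobulin gene, had 5 with 26.5 to 76.5 tags and 1 other 48 h peak. Of the 5, 2 also lay inside Sla, a gene for an adaptor that dampens antigen receptor signalling. Rbm47, which encodes an RNA-binding protein, had 4 with 32.4 to 73.6 tags, all in its introns, and no other 48 h peak. Bach2, a repressor that restrains plasma cell differentiation, had 3 with 23.6 to 44.2 tags and 3 other 48 h peaks. 5031414D18Rik had 3 with 29.4 to 50 tags and 1 other.

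Lists of genes with known roles in B cells were then read against that background of 2.83%. The lists were made of genes well known in B cells and were not tested. Genes with long flanks collect more peaks under a nearest-gene rule, and this was not adjusted for. B lineage transcription factors had a peak found alone at 6 of 20 genes, with an other 48 h peak at 9 of 20. At Bach2 the 3 peaks had 44.2, 41.2 and 23.6 tags, and the first held an AP-1 site and an ISRE. Runx1, a haematopoietic factor gene, had 2 peaks at 44.2 and 32.4 tags, both upstream, and no other 48 h peak. At Klf2, a factor that maintains quiescence and recirculation, 2 downstream peaks had 32.4 tags each, beside a shared one of 41.2. Ebf1 had a second intronic peak with 32.4 tags, an EICE and an ISRE. Mef2c and Runx3 completed the 6.

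Plasma cell genes had a peak found alone at 4 of 14 annotated genes and an other 48 h peak at 3. The peak 16.4 kb upstream of Irf4, whose ISRE is shown above, had 53 tags, while the shared peak at 20.8 kb had 29.4 tags and an EICE. Prdm1, which encodes the plasma cell regulator BLIMP-1, had its only assigned 48 h peak in an intron 14.1 kb downstream of the nearest start, with 44.2 tags (24.7 to 72.8) and an ISRE. A further peak found alone, with 50 tags, lay 180.5 kb upstream of Prdm1, beyond the limit of 50 kb. Slamf7, a surface receptor gene of plasma cells, had 44.2 tags at 7.33 kb upstream and no element. Zbtb20, a factor of plasma cell survival, had 44.2 and 35.3 tags, the second with a composite and an NF-kappaB site.

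Cytokine and receptor genes had a peak found alone at 8 of 33 genes and an other 48 h peak at 4. Among the 33 listed genes, the highest was 30.7 kb upstream of Il1r2, the decoy receptor of interleukin 1, with 55.9 tags (33.7 to 87.3) and an AP-1 site. Il10, whose product is a regulatory cytokine of activated B cells, had 38.3 tags 27 kb downstream. Il2ra, the interleukin 2 receptor alpha chain gene, had a promoter peak of 38.3 tags with an NF-kappaB site and an intronic one of 26.5. Il21r, the receptor of a T follicular helper cytokine, had 38.3 tags 6.12 kb upstream. Ccr2, Il6 and Stat3 were also among the 8, and Stat3 alone among these 8 genes also had an other 48 h peak.

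Signalling and surface genes were reached by single peaks. In B cell receptor signalling, 3 of 21 genes had a peak found alone and 6 had an other 48 h peak. Ptpn6, the phosphatase SHP-1, had 35.3 tags at its promoter with an AP-1 site. Prkcb, a protein kinase C gene, had 35.3 tags in an intron. Toll-like receptor and NF-kappaB genes had 4 of 28, as many as had an other peak. They were Nfkb1 and Nfkbiz at 32.4 tags each, Ly86 at 29.4 with an adjacent composite, and Tnfaip3, the inhibitor A20, at 26.5. Of the surface and co-receptor genes, 3 of 18 had one, against 6 with an other peak. Cr2, the complement receptor CD21, had 41.2 tags. The BAFF receptor gene Tnfrsf13c had 38.3 tags and an AP-1 site, and Tnfrsf13b, for TACI, had 26.5.

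Adhesion, migration and survival genes with a peak found alone also had 1 each. In adhesion and migration, 3 of 21 genes had a peak found alone and 1 an other peak. S1pr1, the receptor for lymphocyte exit, had 50 tags 36.5 kb downstream with an adjacent composite, and Cd9 had 38.3 tags. Apoptosis genes had 4 of 20, against 2 with an other peak. The peak 30.4 kb from the start of Bbc3, which encodes the BH3-only protein PUMA, had 53 tags and an adjacent composite. It lay in an intron of Sae1. Pmaip1, for NOXA, had 35.3 tags with an AP-1 site, and the survival gene Mcl1 had 26.5 at its promoter with an EICE. Germinal centre and activation genes had 3 of 22 in both groups. Those with a peak found alone were Il21r, Ccr7 at 32.4 and Ccr6 at 29.4 tags.

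Each of the remaining lists had a peak found alone at 2 genes or fewer. The shares were 20% for B cell markers, 11.1% for the IRF family and 10.5% for the AP-1 and BATF family. They were 8.33% for MHC class II presentation, 4.17% for the cell cycle list and 3.85% for interferon-stimulated genes, against 2.83% of all genes. MHC class I processing, T cell markers and myeloid markers had none. The cell cycle list had 1 of 24, Ccnd3, a D-type cyclin gene, with 67.7 tags (42.9 to 101.6) in an intron and none of the words searched. The AP-1 and BATF family had Bach2 and Batf3 of 19, Batf3 at 38.3 tags. The IRF family had Irf4 alone of 9, and MHC class II presentation had H2-Ob of 12 at 29.4 tags. Interferon-stimulated genes had 1 of 26. MHC class I processing had none of 13. Among B cell markers, 2 of 10 genes had a peak found alone within 50 kb, Cr2 and Ebf1. A peak found alone in an intron of Pax5, 58.7 kb from the nearest start, was beyond that limit. None of 10 annotated T cell markers and none of 10 annotated myeloid markers had a peak of either group within 50 kb. For each list the interval for peaks found alone was 0 to 30.9%. Over all genes the shares were 2.83% for the peaks found alone and 2.28% for the others. Lists of 10 genes therefore cannot show a lack of peaks.

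**Figure D5:**
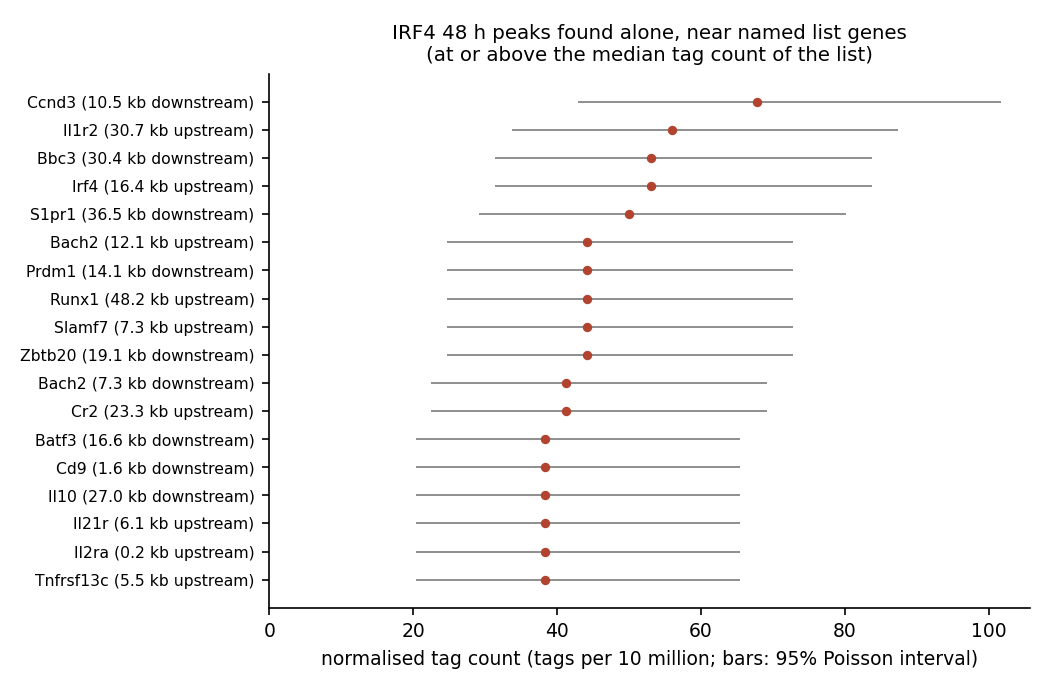
Normalised tag count (tags per 10000000) of the peaks found alone at the named list genes that had at least 38.3 tags, the median of the IRF4 48 h list, with exact 95% Poisson intervals as bars and the distance from the nearest transcription start of the gene in brackets. Counts are between 38.3 and 67.7, the highest at Ccnd3, and the intervals of all these peaks overlap.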

How the data were processed

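Per the file headers, HOMER findPeaks gave the 4 LPS lists, as 500 bp peaks at a false discovery rate of 0.001, counting 1 tag per position and asking a fold of 4 over the 10000 bp around. In the deposited lists the signal is the normalised tag count. The deposited score is the number of tags used, the local and clonal folds are ratios, the focus ratio is a fraction, and the p-value is a Poisson value against the local region, all given by the authors' caller. The p-values were not used. The GC list, called with MACS per the design text, holds positions. The submitters' processing notes name mm9, BWA and Bowtie2, and the design text words the alignment differently, so the aligner is not settled.

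Overlap was tested on all intervals, with 1 bp counted as shared. Dividing out the scaling gave whole tags within 0.05. Elements were searched on both strands in 201 bases. Genes came from GENCODE M1, all transcripts of protein-coding genes, and upstream or downstream refers to the nearest transcript start. Python 3.11, pandas 2.3.3, numpy 2.4.6 and scipy 1.17.1 were used. The search and interval code was tested on simulated data. The members, elements and gene lists were chosen with earlier results of these data known. The text names the 12 single-copy members with the most tags, the highest for each element and genes with 3 or more members. From each list up to 4 genes are named with tag counts, and some further genes were added without them. A second sequence per element and further peaks per element were added to that rule. Left out were 11 IRF4 48 h peaks that lay on unplaced or mitochondrial sequence. Some genes that this rule names, and the sequence of 1 of them, are not reported here.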

Additional observations from a re-analysis of the deposited data

How the results depend on the processing

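No paired analysis was possible because each group held 1 library. Leaving out replicates was likewise not possible. Of 71 alternative values, 54 kept their size and direction. Limited to peaks at or above the median tag count, 329 peaks were found alone, with a median of 44.2 tags, 240 genes and an AP-1 share of 37.4%. Searching 50 bp around the centre gave shares of 25.2% (AP-1), 5.13% (EICE) and 2.51% (ISRE), and the whole interval 40.4%, 11.4% and 10.5%. In each of these settings the AP-1 share stayed above, and the EICE share below, that of the other 48 h peaks.

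Small differences turned round, given here as the peaks found alone against the other 48 h peaks. The promoter share was 9.15% against 9.16% without the IRF8 72 h list, 6.99% against 8.42% among peaks at or above the median, and 16.3% against 16.8% with promoters of 2500 bp. The composite share was 5.33% against 6.04% with the IRF4 72 h list alone in the rule, and 5.78% against 6.48% at or above the median. The ISRE share was 4.47% against 4.63% when intervals within 1000 bp counted as shared, and 4.48% against 4.64% without the GC list. The cause was not tested. The median peak found alone rests on 11 tags, which limits every statement on single peaks.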

Other observations

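Words of 7 bases were counted after the element shares had been seen and are given without a test. Parts of the composite element lay in peaks with and without a full AP-1 site. GAAATGA and TGAGTAA were among the words ranked highest by excess over the flanks of these same peaks, so that excess is a description only. The word GAAATGA, the IRF part of the adjacent composite with the first 3 bases of the AP-1 site, lay under 21.3% of the peaks found alone (18.6 to 24.2) and 16.7% of the other 48 h peaks (13.9 to 19.7), with 4.28% in the flanks of the peaks found alone. Among peaks with no AP-1 site it was still under 20.0% of 589 peaks found alone (16.9 to 23.5) and 14.7% of 524 others (11.8 to 18.02). TTTC, 4 bases and TGA, the same part of the other arrangement, was under 10.0% of the peaks found alone (8.12 to 12.2) and 16.8% of the others (14.1 to 19.8), with 4.85% in the flanks. TGAGTAA, an AP-1 site with 1 base changed, was under 9.45% of the peaks found alone (7.60 to 11.6) and 6.14% of the others (4.46 to 8.21), with 1.77% in the flanks. The intervals were separate for the arrangement with 4 bases between and overlapped for the other words.

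Base composition was similar, with a median GC content of 44.3% under the single-copy peaks found alone, 45.8% under the other single-copy 48 h peaks and 44.8% in the flanks. Distances between neighbouring peaks were counted without an expected value beside them. Another peak found alone lay within 10000 bp of 44 of the 878 (5.01%), and one of the other 48 h peaks within 10000 bp of 36 (4.10%).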
